A study of Mus musculus with 9 samples.

Results

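The genes described here encode integrins, the proteins that assemble on their cytoplasmic side at focal adhesions, and the proteins that carry force from the cytoskeleton to the nucleus. The list of 39 genes was given by symbol. The table of gene expression, which held 13081 genes, contained 37 of them, and 36 of those passed the filter for testing among 12667 genes tested. The table did not list the integrin alpha genes Itga5 and Itgam. Of the 50-base words of Itgam transcripts, 72.4% also occur in the predicted gene Gm49368. Its reads could have been left uncounted, so its absence does not show a lack of its RNA. Itgb3 was in the table below the filter. Whole kidneys of wild-type mice were compared at 3 months of age (young, 4 libraries) and at 16 months of age (old, 5 libraries). No allele or agent other than age is given for either group, and the sex of the mice is not given in the sources used here. Poly(A) RNA was read from its 3′ end, so each value counts transcript ends of 1 gene in bulk tissue. The values are normalized counts, that is, reads of a gene divided by 1 size factor for each library.

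Integrins are dimers of an alpha and a beta chain that bind extracellular matrix outside the cell and, through talin, actin inside it. At such a contact, kinases, adaptors and actin cross-linkers gather into a focal adhesion, and myosin pulls on the attached filaments. The pull reaches the nucleus through the linker of nucleoskeleton and cytoskeleton (LINC) complex, in which nesprins (Syne genes) of the outer nuclear membrane bind SUN proteins of the inner membrane, which contact lamin A/C. In the kidney, laminin-binding integrins hold podocytes and tubule cells to their basement membranes, and mutations of several adhesion genes cause glomerular disease.

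The table held 4486406 to 6355095 reads per library. Mitochondrial genes took 27.0% to 29.7% of the reads in young and 35.8% to 38.1% in old libraries. All young libraries carried one title prefix and all old libraries another, so whatever the prefix marks cannot be told apart from age. Genes of the kidney tubule were abundant in every library, with summed proximal tubule markers at 33870 to 34883 normalized counts in young and 30717 to 39640 in old kidneys. Summed adipocyte markers ranged from 2.46 to 531 within the young and from 1.87 to 609 within the old libraries. In the limma fit over all genes, 59.7% of genes tested had an adjusted p under 0.05 (referred to as called), 29.2% higher and 30.5% lower in old kidneys.

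Among the adhesion and nuclear linkage genes, old kidneys had more RNA of 5 of 6 integrin alpha chains tested, both talins, filamin A, the kinases Rock1 and Rock2, non-muscle myosin IIA, both nesprins and the phosphatase Ptpn13. Of these, Itga9, Itgav, Tln2 and Syne1 were no longer called with a trend over transcript length removed. The same kidneys had less RNA of the beta chains Itgb5, Itgb6 and Itgb8, of the integrin-linked kinase complex, of the kinases Src and Ptk2, of Actn4 and of both SUN genes. Among these lower genes, Sun2 was no longer called with mitochondrial genes left out. Of the 36 genes tested, 30 were called, which is 83.3% beside 59.7% of all genes. Of these, 17 were higher in old kidneys (47.2%, beside 29.2% of all genes) and 13 were lower (36.1%, beside 30.5%). The 6 genes not called were Itga8, Itgb2, Cd44, Icam1, Vcl and Zyx. In bulk tissue, fewer cells of a type and less RNA per cell cannot be told apart.

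A change of at least 1.5-fold with an adjusted p under 0.05 was found for 21 genes (58.3%, beside 45.1% of all genes), 12 higher and 9 lower. With the trend of each library over transcript length removed, the count was 14 (38.9%, beside 42.6% of all genes), 5 higher and 9 lower. The young and old libraries did not overlap at all for 25 genes (69.4%, beside 49.0% of all genes). The median log2 fold change, old over young, was 0.25 over the 36 genes and -0.0027 over all genes tested. The median of its absolute value was 0.66 and 0.56, respectively. Called genes are more frequent among well counted genes, and of the 26 listed genes with a mean of at least 100 normalized counts 25 were called (16 higher, 9 lower), beside 72.5% of all such genes. The edgeR quasi-likelihood test and DESeq2, run on whole reads, called the same 30 genes in the same directions, beside 60.3% and 59.4% of all genes. Fold changes are on the log2(normalized count + 1) scale, which understates changes of genes with low counts.

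**Figure D1:**
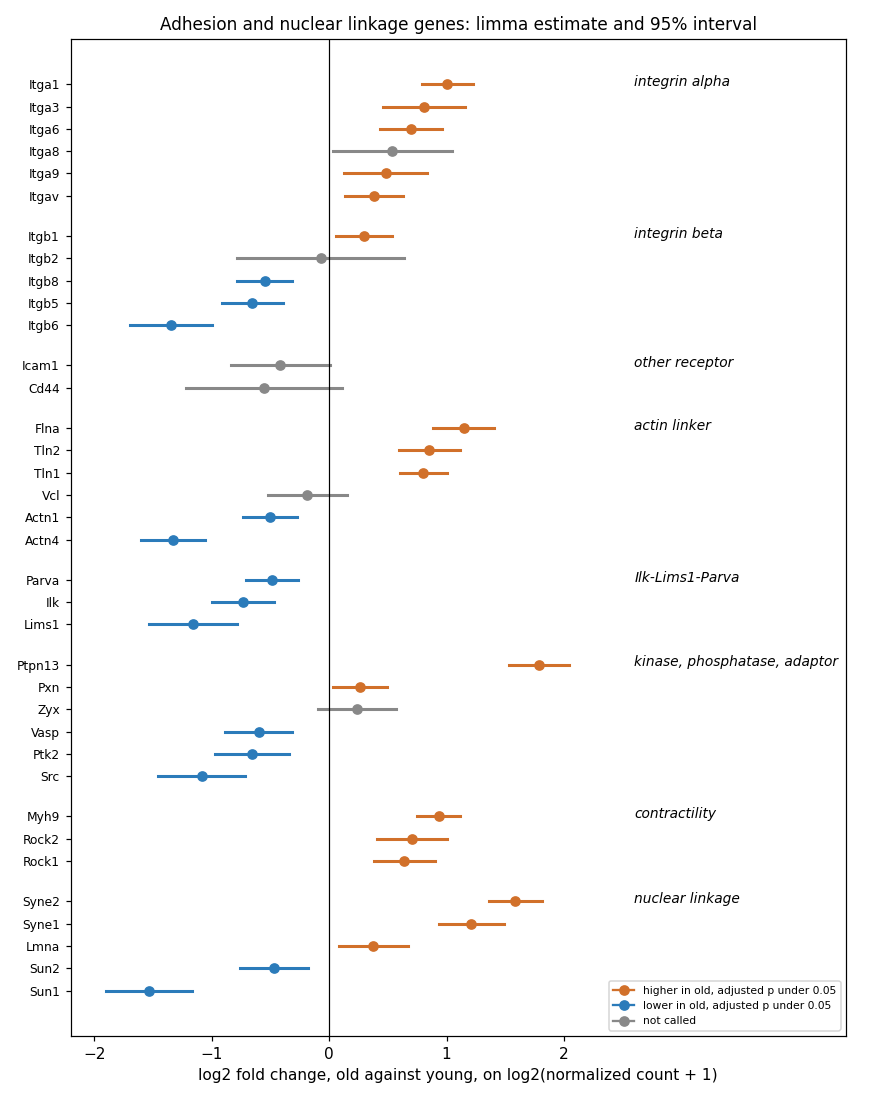
Log2 fold change, old over young, of the 36 adhesion and nuclear linkage genes tested, grouped by role, with points at the limma estimate and bars for its 95% interval. Orange points are the 17 genes called higher, blue points the 13 called lower and gray points the 6 not called. The integrin alpha and contractility points lie right of 0 and those of the integrin-linked kinase complex left of it.

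Promoter sequence of these genes was read from RefSeq on the mouse build GRCm38.p6, an earlier build than the one the reads were aligned to (GRCm39). The windows were the 250 bases before each annotated start. Of the 39 genes, 31 matched by symbol, with 40 windows, beside 32851 windows of all genes. The letters GGGCGG, searched on both strands as all motifs were, are the core of the GC box of Sp1-family factors. They occurred in 23 of the 40 windows (57.5%), belonging to 22 genes, beside 32.7% of all windows. Of these genes, 9 were called higher, 8 lower, 3 were not called and 2 were not tested, so matches lay on genes of both directions. The E-box CACGTG, a palindrome bound by TFEB and other basic helix-loop-helix factors, occurred in 2 windows (5.0%, beside 6.02% of all), those of Ilk and Lims1. The letters CATTCC, the core bound by TEAD factors, occurred in 5 windows (12.5%, beside 12.6%). The CArG box of serum response factor occurred in 2 (5.0%, beside 1.47%), those of Itgb6 and Vcl. In 0 of the 40 windows did matches of different motifs overlap. A match describes the sequence and is not a binding site.

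The windows of Ilk and Lims1 are shown because these 2 genes of 1 protein complex both fell in old kidneys and were the listed genes with the E-box letters (capitals mark CACGTG). The Ilk window lies on the plus strand at chr7:105736340-105736589, before the first of 2 annotated starts, and the Lims1 window on the plus strand at chr10:58371204-58371453, before the third of 3.
Ilk: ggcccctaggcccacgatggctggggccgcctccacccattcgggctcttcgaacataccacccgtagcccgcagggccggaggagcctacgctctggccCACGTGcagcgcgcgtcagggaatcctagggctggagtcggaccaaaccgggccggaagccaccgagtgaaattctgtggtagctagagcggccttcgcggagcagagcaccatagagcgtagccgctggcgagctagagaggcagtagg
Lims1: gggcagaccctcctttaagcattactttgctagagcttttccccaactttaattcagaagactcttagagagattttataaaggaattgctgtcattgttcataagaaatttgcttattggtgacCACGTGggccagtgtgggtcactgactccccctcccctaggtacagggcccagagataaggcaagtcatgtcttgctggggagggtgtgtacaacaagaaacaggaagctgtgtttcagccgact
The windows of Sun1 and Syne2 are shown because they encode partners in 1 nuclear envelope bridge that moved in opposite directions, while both windows hold 3 matches to GGGCGG or its reverse complement (capitals). The Sun1 window lies on the plus strand at chr5:139200387-139200636, before the first of 2 annotated starts, and the Syne2 window on the plus strand at chr12:75818068-75818317. By the gene position given below, Syne2 starts at 75818134, so most of its window, with all 3 matches, lies inside the gene. The 2 annotations differ on that start.
Sun1: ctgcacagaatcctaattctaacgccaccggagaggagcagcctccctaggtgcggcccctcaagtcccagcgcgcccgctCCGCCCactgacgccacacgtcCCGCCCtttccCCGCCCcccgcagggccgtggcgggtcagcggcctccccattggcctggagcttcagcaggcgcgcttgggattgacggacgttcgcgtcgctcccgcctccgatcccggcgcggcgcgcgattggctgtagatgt
Syne2: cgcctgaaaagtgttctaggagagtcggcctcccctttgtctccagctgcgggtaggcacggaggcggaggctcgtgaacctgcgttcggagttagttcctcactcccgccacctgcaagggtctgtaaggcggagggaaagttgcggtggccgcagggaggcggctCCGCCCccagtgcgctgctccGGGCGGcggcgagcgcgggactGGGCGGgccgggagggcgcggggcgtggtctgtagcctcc

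Integrin alpha chains had more RNA in old kidneys. Of the 6 tested, 5 were called, all higher, beside 29.2% of all genes called higher. With the trend over transcript length removed, 2 of these, Itga9 and Itgav, lost their calls. As tested, the largest of these rises was in Itga1, which encodes the alpha chain of a collagen receptor found on stromal, mesangial and endothelial cells. Itga3 and Itga6, the alpha chains of laminin receptors of podocytes and tubule epithelium, followed.

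Itga1 (GRCm38, as all gene positions here, chr13:114953096-115101964, minus strand) was at 561, 437, 521 and 459.9 normalized counts in the 4 young libraries and at 1075, 886, 896, 1065 and 1045 in the 5 old ones. Every old library was above every young library, and the gene rose 2.01-fold, with a log2 fold change of 1.01 ± 0.10 (SE) and limma adjusted p = 1.33e-07. With the length trend removed it was 0.43 (adjusted p = 0.00118), the highest adjusted p of its alternatives, and smaller than the values of Itga3 (0.67) and Itga6 (0.63). Itga3 (chr11:95044474-95076801, minus strand) was at 70.4, 70.9, 91.2 and 104 in young and 132, 124, 207, 142 and 139 in old libraries. The groups did not overlap, although old replicate 3 stood well above the other 4 old libraries. The log2 fold change of Itga3 was 0.81 ± 0.17 (SE), limma adjusted p = 0.00039, and without old replicate 3 it was 0.68, the lowest value when any 1 library was left out. Itga6 (chr2:71745616-71858416, plus strand) was at 352, 359, 305 and 279.7 in young and 543, 463, 430.0, 664 and 545 in old libraries. Old replicate 3, the lowest old library, was still above the highest young one, and the log2 fold change was 0.70 ± 0.12 (SE), limma adjusted p = 9.18e-05. Of the 50-base words of Itga1 transcripts, 5.5% also occur in the predicted gene Gm49395, in 9330158H04Rik or in Clcn3, and 6.5% of those of Itga6 in the predicted gene Gm29397, so a part of their reads could be shared.

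Smaller rises were called for Itgav and Itga9. Itgav, the alpha chain that pairs with several beta chains to bind RGD ligands and latent TGF-β, was at 230.1 ± 17.5 (SD, n = 4) in young and 302 ± 39.9 (SD, n = 5) in old kidneys, with a log2 fold change of 0.38 ± 0.12 (SE) and limma adjusted p = 0.00852. Itga9, a receptor chain for tenascin and other ligands, was at 55.7 ± 5.60 (SD, n = 4) in young and 79 ± 14.9 (SD, n = 5) in old kidneys, and its log2 fold change was 0.48 ± 0.17 (SE), limma adjusted p = 0.0203. In both, 4 of the 5 old libraries were above every young library. With the length trend removed the values were 0.04 (adjusted p = 0.787) for Itgav and 0.14 (adjusted p = 0.502) for Itga9. The Itga9 call was lost without young replicate 3 (log2 fold change 0.43, adjusted p = 0.0623) and without old replicate 1 (0.39, adjusted p = 0.0565), within a range of adjusted p from 0.00391 to 0.502 over all alternatives. Itga8, the nephronectin receptor of mesangial and stromal cells, was at 20.5 ± 3.26 (SD, n = 4) in young and 30.6 ± 7.32 (SD, n = 5) in old kidneys. Its log2 fold change of 0.54 ± 0.24 (SE) did not pass the test (limma adjusted p = 0.0619), but it passed without old replicate 1 (0.64, adjusted p = 0.0303), within a range of 0.023 to 0.295.

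Integrin beta chains differed in direction. Of the 5 tested, Itgb1 was called higher and Itgb5, Itgb6 and Itgb8 lower, beside 29.2% and 30.5% of all genes. Itgb2 was not called. The 3 that fell all encode partners of the alpha v chain. Their products bind vitronectin (β5) or the latent form of TGF-β (β6 and β8), which the epithelium uses to activate that cytokine.

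Itgb6 (chr2:60598292-60722643, minus strand), an epithelial chain, was at 445, 504, 628 and 532 normalized counts in young and 137, 248, 181, 206 and 289.6 in old libraries. The old libraries all lay below the young ones, and the log2 fold change was -1.34 ± 0.17 (SE), limma adjusted p = 1.59e-06, which is 0.39 of the young level. Itgb5 was at 226, 245, 214 and 234 in young and 146, 168, 168, 129.7 and 122 in old libraries. Old replicate 2 was the old library nearest the young ones, with no overlap, and the log2 fold change was -0.65 ± 0.13 (SE), limma adjusted p = 0.000202. Itgb8 was at 364, 506, 443 and 441 in young and 289, 327, 325, 289 and 264 in old libraries. It fell in all 5 old libraries by less than Itgb6, with a log2 fold change of -0.55 ± 0.11 (SE) and limma adjusted p = 0.000358. A predicted gene shares 8.17% of the 50-base words of Itgb5 transcripts.

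Itgb1, the common partner of most alpha chains including those of Itga1, Itga3, Itga6, Itga8 and Itga9, was at 485 ± 34.7 (SD, n = 4) in young and 602 ± 97.2 (SD, n = 5) in old kidneys. Its log2 fold change was 0.30 ± 0.11 (SE), limma adjusted p = 0.0305, and 4 of 5 old libraries were above every young one. The Itgb1 call rested on single libraries: it was lost without young replicate 2, young replicate 4, old replicate 3 or old replicate 5, with log2 fold changes of 0.29, 0.25, 0.22 and 0.27, and its adjusted p ranged from 0.00413 to 0.0979 over all alternatives. Itgb2, the leukocyte beta chain, was at 11.5 ± 1.60 (SD, n = 4) in young and 11.4 ± 3.95 (SD, n = 5) in old kidneys. It rested on 6 to 16 reads per library, its log2 fold change was -0.07 ± 0.34 (SE), limma adjusted p = 0.868, with a 95% interval of -0.79 to 0.64. The sign of the Itgb2 value changed with mitochondrial genes left out (0.057) or the length trend removed (0.039). Itgb3, the chain of platelets and of the vitronectin receptor, was not tested. It was at 4.86 to 7.37 in young and 6.36 to 12.1 in old libraries, from 5 to 13 reads.

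The other 2 receptors were not called. Cd44, the hyaluronan receptor, was at 18.7 ± 5.67 (SD, n = 4) in young and 12.4 ± 3.84 (SD, n = 5) in old kidneys (log2 fold change -0.55 ± 0.32 (SE), limma adjusted p = 0.139). Icam1, the endothelial ligand of leukocyte integrins, was at 68 ± 18 (SD, n = 4) in young and 50.3 ± 10.6 (SD, n = 5) in old kidneys (log2 fold change -0.42 ± 0.20 (SE), limma adjusted p = 0.0831). For both the old mean was the lower one, and the age groups overlapped. Icam1 passed the test without young replicate 4 (log2 fold change -0.53, adjusted p = 0.0478) or without old replicate 1 (-0.52, adjusted p = 0.0336), within an adjusted p range of 0.0336 to 0.317.

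Linkers between integrins and actin split into talins and filamin A, which rose, and alpha-actinins, which fell. Of 6 tested, 3 were called higher (Flna, Tln1 and Tln2) and 2 lower (Actn1 and Actn4), beside 29.2% and 30.5% of all genes. Vcl was not called. Groups did not overlap for any of the 5 called genes, beside 49.0% of all genes without overlap.

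Flna (chrX:74223461-74249820, minus strand) encodes filamin A, which cross-links actin and binds beta chain tails. Its values were 198, 144, 149 and 186 normalized counts in young and 382, 314, 398, 424 and 353 in old libraries. The old libraries stood 2.21 times higher, with a log2 fold change of 1.15 ± 0.12 (SE) and limma adjusted p = 2.99e-07. Actn4 (chr7:28893248-28962340, minus strand), an alpha-actinin of podocyte foot processes in which mutations cause focal segmental glomerulosclerosis, was at 2838, 2819, 2802 and 3039 in young and 943, 1648, 1219, 1028 and 994 in old libraries. All old libraries were far below the young, with a log2 fold change of -1.33 ± 0.13 (SE) and limma adjusted p = 7.22e-08. Tln2, the talin of mature adhesions, was at 321, 324, 323 and 397 in young and 552, 492, 593, 746 and 727 in old libraries. Young replicate 4 lay above the other 3 young libraries and below every old one, and the log2 fold change was 0.85 ± 0.12 (SE), limma adjusted p = 1.01e-05. With the length trend removed, Tln2 lost its call at 0.23 (adjusted p = 0.096), and Flna was at 0.71 (adjusted p = 7.36e-05).

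Tln1, the widely expressed talin that activates integrins, rose by a similar amount. It was at 652 ± 41.8 (SD, n = 4) in young and 1140.5 ± 105 (SD, n = 5) in old kidneys, with a log2 fold change of 0.80 ± 0.09 (SE) and limma adjusted p = 7.17e-07. With the length trend removed it was at 0.37 (adjusted p = 0.00149). Actn1 was at 253 ± 14.5 (SD, n = 4) in young and 178 ± 13.2 (SD, n = 5) in old kidneys, with a log2 fold change of -0.50 ± 0.11 (SE) and limma adjusted p = 0.0006. Vcl, vinculin, which binds talin when it is stretched, was at 84.9 ± 8.99 (SD, n = 4) in young and 75.1 ± 13.5 (SD, n = 5) in old kidneys. One old library was above and 3 were below all young libraries for Vcl, and its log2 fold change of -0.18 ± 0.16 (SE) did not pass the test (limma adjusted p = 0.335).

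All 3 genes of the IPP complex were lower in old kidneys, with no overlap between ages, beside 30.5% of all genes called lower and 49.0% without overlap. The complex joins integrin-linked kinase, a pseudokinase on beta chain tails (Ilk), the LIM protein PINCH1 (Lims1) and alpha-parvin (Parva), and it ties integrins to actin. Lims1 was at 88.4, 94.3, 68.6 and 88.7 normalized counts in young and 48.3, 38.3, 32.5, 36.4 and 32.9 in the old ones. Lims1 had a log2 fold change of -1.16 ± 0.18 (SE) (limma adjusted p = 2.02e-05), with old replicate 1 nearest the young libraries. Ilk (chr7:105736592-105742925, plus strand) was at 317, 314, 369 and 482 in young and 226, 215, 198, 235 and 225 in old libraries. Its old libraries all fell below the young ones, with a log2 fold change of -0.73 ± 0.13 (SE) and limma adjusted p = 6.41e-05. A predicted gene shares 8.12% of the 50-base words of Ilk. Parva was at 383, 375, 394 and 409 in young and 324, 264, 263, 305 and 246 in old libraries. As tested, it fell least of the 3, by 0.48 on the log2 scale ± 0.11 (SE), limma adjusted p = 0.000697. With the length trend removed, Ilk fell least, at -0.53 (limma adjusted p = 0.00136), with Parva at -0.73 (limma adjusted p = 1.44e-05).

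**Figure D2:**
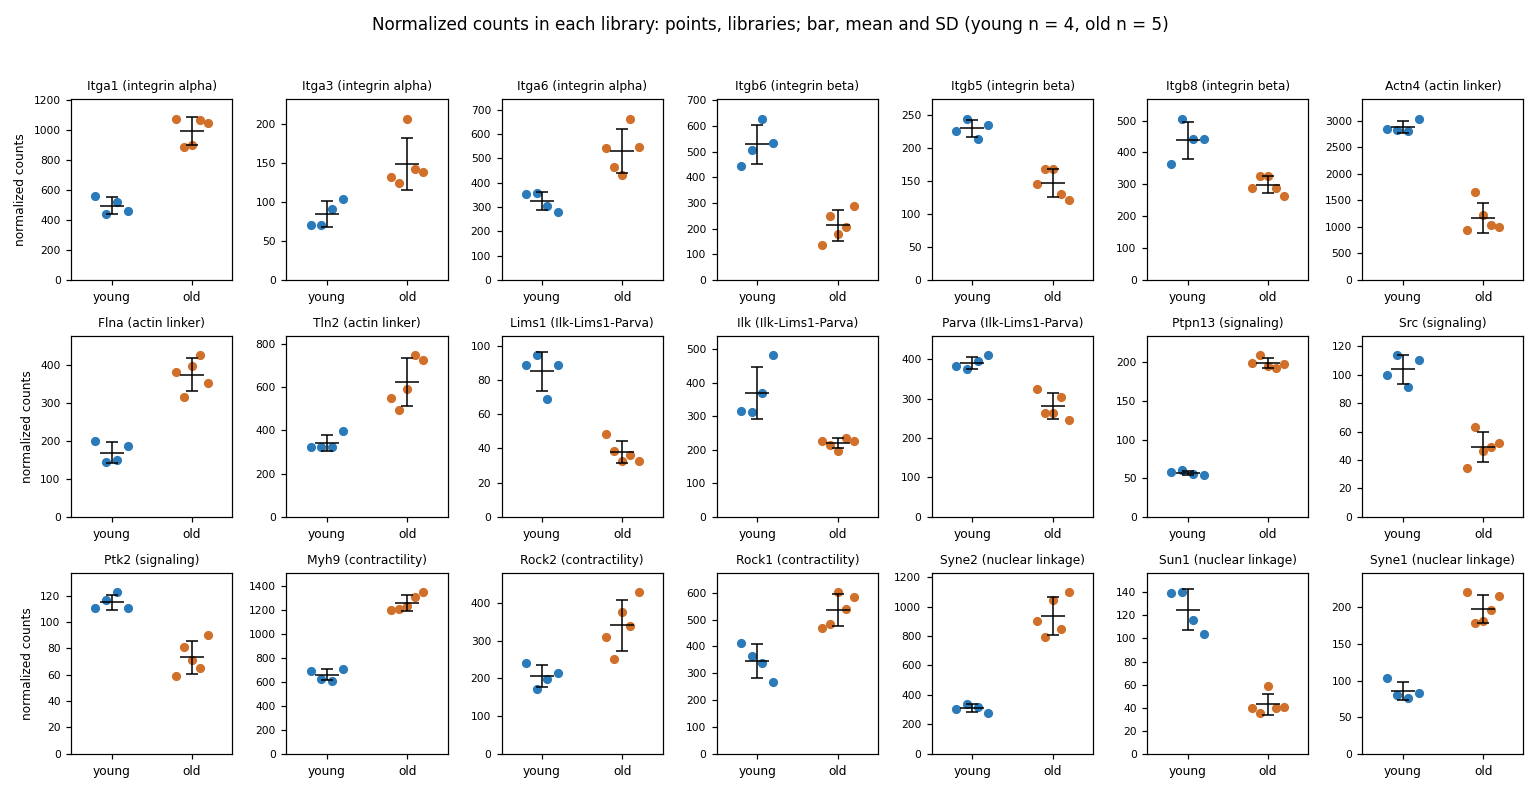
Normalized counts (y axis of each panel, starting at 0) of the 21 genes given by library, with 1 point for each of the 4 young and 5 old libraries and bars for the mean ± SD. The 21 panels show no overlap between the age groups, for genes that rose and genes that fell.

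Among kinases, phosphatases and adaptors of the adhesion, Src, Ptk2 and Vasp were called lower and Ptpn13 and Pxn higher. Zyx was not called. Over all genes, 30.5% were called lower and 29.2% higher. Ptpn13 (chr5:103425192-103598303, plus strand), a large tyrosine phosphatase with FERM and PDZ domains, had the largest rise of all 36 genes. Its values were 58.1, 60.2, 54.9 and 54.3 normalized counts in young and 199, 209, 196, 193 and 198 in old libraries. The lowest old library was far above the highest young one, and the log2 fold change was 1.79 ± 0.12 (SE), limma adjusted p = 6.48e-10. Src, the kinase that phosphorylates focal adhesion kinase and its partners, was at 99.9, 114, 91.2 and 110.4 in young and 34.2, 63.4, 46.7, 49.4 and 52 in old libraries. The old libraries were all lower, with a log2 fold change of -1.09 ± 0.18 (SE) and limma adjusted p = 3.73e-05. Ptk2, focal adhesion kinase itself, was at 111, 117, 123 and 110.4 in young and 58.9, 80.9, 71, 65.3 and 90.2 in old libraries. Old replicate 5 came nearest the young libraries and was still below all of them, and the log2 fold change was -0.66 ± 0.15 (SE), limma adjusted p = 0.00101.

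Vasp, which extends actin filaments at adhesions, was at 163 ± 19 (SD, n = 4) in young and 107 ± 14.2 (SD, n = 5) in old kidneys, with a log2 fold change of -0.60 ± 0.14 (SE) and limma adjusted p = 0.000906. Pxn, the scaffold paxillin, was at 465 ± 61.6 (SD, n = 4) in young and 557 ± 52.3 (SD, n = 5) in old kidneys, with a log2 fold change of 0.27 ± 0.11 (SE) and limma adjusted p = 0.0428. The Pxn call was close to the threshold. It was lost without young replicate 1 or 2 and without old replicate 1 or 2, with log2 fold changes of 0.27, 0.17, 0.22 and 0.25, and its adjusted p ranged from 0.0039 to 0.206 over all alternatives. Zyx, zyxin, which moves to stretched actin fibers, was at 103 ± 14 (SD, n = 4) in young and 123 ± 24.6 (SD, n = 5) in old kidneys and was not called (log2 fold change 0.24 ± 0.16 (SE), limma adjusted p = 0.204).

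The 3 contractility genes all rose, without overlap, beside 29.2% of all genes called higher and 49.0% without overlap. Myh9 (chr15:77760587-77842175, minus strand), the heavy chain of non-muscle myosin IIA and a gene of inherited kidney disease, was at 693, 629, 612 and 706 normalized counts in young and 1201, 1211, 1233, 1309 and 1349 in old libraries. It rose 1.91-fold in a tight spread, with a log2 fold change of 0.93 ± 0.09 (SE) and limma adjusted p = 5.05e-08. Rock2, a kinase that raises myosin phosphorylation, was at 241, 173, 199 and 214 in young and 310.0, 250.5, 375, 339.5 and 429 in old libraries. All old libraries were higher, by a log2 fold change of 0.71 ± 0.14 (SE), limma adjusted p = 0.000298. Rock1, the paralogous kinase, was at 414, 364, 339 and 266 in young and 468, 482, 601, 539 and 586 in old libraries. Its rise was of similar size, with a log2 fold change of 0.64 ± 0.12 (SE) and limma adjusted p = 0.000213. With the length trend removed the 3 genes were still called, at under 1.5-fold: Myh9 0.56 (adjusted p = 1.86e-05), Rock2 0.32 (adjusted p = 0.0443) and Rock1 0.34 (adjusted p = 0.018), for each the highest adjusted p of its alternatives.

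All 5 genes of nuclear linkage were called, beside 59.7% of all genes. Of these calls, that of Syne1 was lost with the length trend removed, that of Sun2 with mitochondrial genes left out, and that of Lmna without single libraries. The nesprins Syne1 and Syne2 and the lamin A/C gene Lmna were higher, and Sun1 and Sun2 were lower. Syne2 (nesprin-2, chr12:75818134-76110926, plus strand) was at 302, 341, 319 and 278 normalized counts in young and 902, 796, 1046, 847 and 1096 in old libraries. The lowest old library, replicate 2, was above every young library, and the log2 fold change was 1.59 ± 0.11 (SE), limma adjusted p = 7.74e-10. Syne1 (nesprin-1, chr10:5020917-5551482, minus strand) was at 103, 79.7, 76.5 and 82.4 in young and 220.4, 178, 182, 196 and 215 in old libraries. It also rose without overlap, with a log2 fold change of 1.21 ± 0.13 (SE) and limma adjusted p = 2.91e-07. With the length trend removed, Syne1 was at 0.20 (adjusted p = 0.187) and no longer called, and Syne2 was at 0.68 (adjusted p = 5.52e-06). Sun1 (chr5:139200637-139249840, plus strand) was at 139, 139.9, 116 and 104 in young and 40.1, 35, 58.8, 40.1 and 40.3 in old libraries. Its fall was the largest of all 36 genes, the level being 2.89 times higher in young than in old kidneys, with a log2 fold change of -1.53 ± 0.18 (SE) and limma adjusted p = 5.62e-07. Old replicate 3 stood above the other old libraries for Sun1 and still below every young one.

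The paralog Sun2 was at 134 ± 5.17 (SD, n = 4) in young and 97.5 ± 15.3 (SD, n = 5) in old kidneys, with a log2 fold change of -0.47 ± 0.14 (SE) and limma adjusted p = 0.00735. Lmna was at 301 ± 48 (SD, n = 4) in young and 394 ± 74.6 (SD, n = 5) in old kidneys, with a log2 fold change of 0.38 ± 0.14 (SE) and limma adjusted p = 0.0256. Only 3 of 5 old libraries were above every young one for Lmna, and its call was lost without young replicate 2 or 3 and without old replicate 4 or 5 (log2 fold changes 0.28, 0.35, 0.33 and 0.29), with an adjusted p from 0.00276 to 0.111 over all alternatives. A small RNA gene, Mir5101, lies within Syne2 on the same strand. The deposited counts were made by strand, and the share of such reads in Syne2 is not known.

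**Figure D3:**
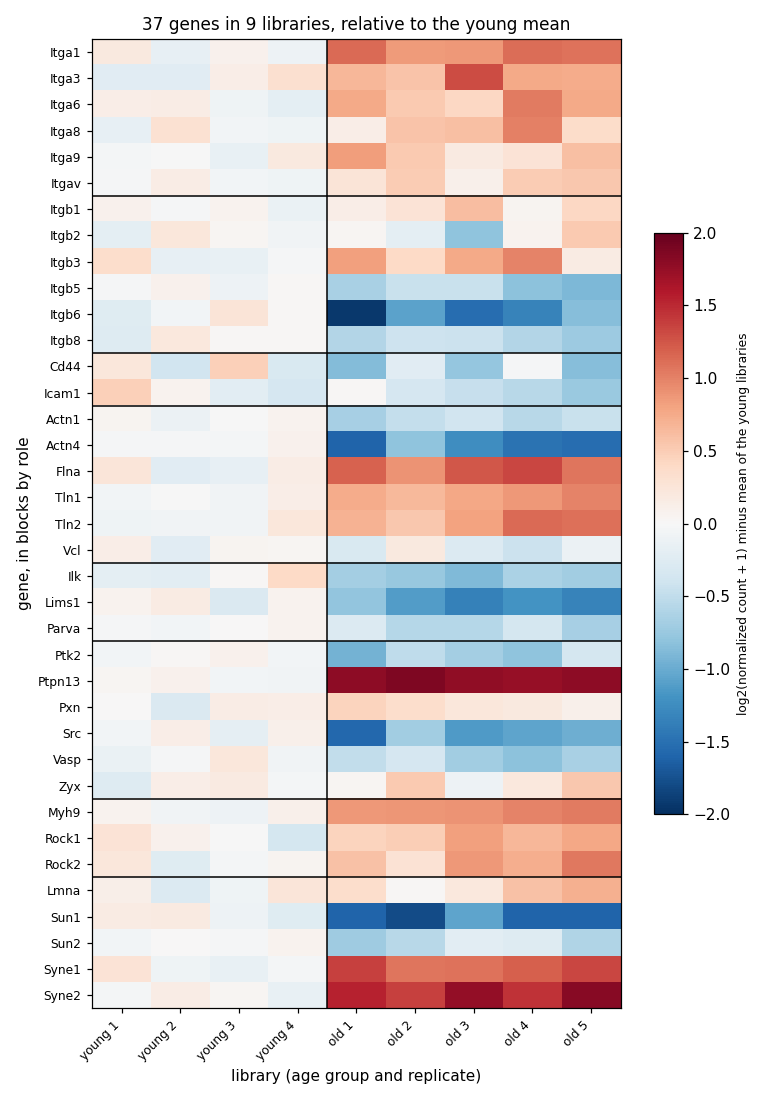
Heat map of the 37 genes in the table (rows, in blocks by role) in the 9 libraries (columns, young then old), colored by log2(normalized count + 1) minus the gene's mean over the young libraries. Young columns are pale, and in old columns the rows of Ptpn13 and Syne2 are the darkest red and those of Sun1 and Itgb6 among the darkest blue.

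Old libraries differed in how far they stood from the young ones. Among the 30 called genes, old replicate 2 was the old library nearest the young mean, on log2(normalized count + 1), for 14. The others were nearest for 4, 6, 3 and 3 (old replicates 1, 3, 4 and 5). Over all called genes of the table, old replicate 2 was nearest for 37.5%. Without old replicate 2, 29 listed genes were called (16 higher and 13 lower), beside 7561 of all genes called. With every library, 7568 of all genes were called.

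Other genes of the same machinery, listed by role, moved in both directions. Of 117 such genes, 107 were in the table and 106 were tested, and 70 of these (66.0%, beside 59.7% of all genes) were called, 37 higher and 33 lower. Among other integrins, 2 of 5 tested (40%) were called, both higher, and the platelet chain Itga2b rose from 30.4 to 55.2 mean normalized counts (log2 fold change 0.83). Among regulators of integrin activation, 1 of 11 rose and 5 fell (54.5% called). The epithelial kindlin Fermt1 rose (log2 fold change 1.25, from 93.4 to 227), while the widely expressed kindlin Fermt2 (-1.04, from 253 to 125) and the small GTPase Rap1a (-1.47, from 259 to 93.2) fell. Kindlins bind beta chain tails beside talin.

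Among other adaptors of focal adhesions, 15 of 36 rose and 7 fell (61.1% called, near the 59.7% of all genes). Crkl, an adaptor of tyrosine-phosphorylated scaffolds, rose from 87.1 to 251 (log2 fold change 1.52), and Bcar1, the scaffold p130Cas that it binds, fell from 278 to 73.6. Sorbs2 rose (1.42) and Lasp1 fell (-1.45). Among actin and myosin genes, 10 of 23 rose and 9 fell (82.6% called). Actb, β-actin, rose from 5327 to 17363 mean normalized counts (1.70), whereas the other cytoplasmic actin gene, Actg1, fell from 3823 to 1555 (-1.29). Pfn1, which loads actin monomers, fell from 280.5 to 18.9 (-3.83) and Cfl1, which severs filaments, fell from 1668 to 617 (-1.45). Myh10, the heavy chain of non-muscle myosin IIB, rose (0.99), as Myh9 did.

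Of 16 nuclear envelope genes tested, 3 rose and 7 fell (62.5% called, near the 59.7% of all genes). Tor1a, an ATPase of the nuclear envelope lumen, fell from 131 to 34.4 (log2 fold change -1.91) and Icmt, which methylates prenylated lamins, from 146 to 43.8 (-1.75). Lmnb1 (0.69) and the prelamin A protease Zmpste24 (0.34) rose. Of 15 ligands and matrix genes tested, 6 rose and 5 fell (73.3% called). Npnt, nephronectin, the ligand of the integrin that holds the Itga8 chain, rose from 340.0 to 872 (1.33). Nid1, a basement membrane linker, rose (1.09), and Lama5, the laminin chain of the mature glomerular basement membrane bound by Itga3 integrin, fell (-0.94), as did the junction protein F11r (-0.64). In limma, the adjusted p of the genes named from these lists was at most 0.0101, and all kept a call with the length trend removed. Without that trend Myh10, whose age groups overlapped, was at 0.59 and Lama5 at -1.53.

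Markers of the cell types of the kidney were read beside these genes, and over all genes 29.2% were called higher and 30.5% lower. Summed endothelial markers (7 of 7 in the table, 5 called higher) were at 1239 to 1361 normalized counts in young and 1658 to 2023 in old libraries. These ranges do not overlap. Podocyte markers (5 of 5) ranged from 685 to 753 in young and from 736 to 870 in old libraries. Of the podocyte markers, 3 were higher and 1 lower: Nphs1 was at 11.7 in young and 50.1 in old kidneys and Podxl at 318 in young and 115 in old kidneys. Stromal, mesangial and smooth muscle markers (8 of 8) gave 3 higher and 3 lower, with sums of 1602 to 2053 in young and 1404 to 2183 in old libraries. The 3 higher were Tagln, Myh11 and Pdgfra, with Tagln at 85.7 in young and 393 in old kidneys, and the 3 lower were Col1a2, Col1a1 and Pdgfrb, with Col1a2 at 785 in young and 393 in old kidneys. Distal nephron and collecting duct markers (7 of 7) summed to 12224 to 13027 in young and 14731 to 17852 in old libraries, with 2 called higher and 3 lower, and proximal tubule markers likewise gave 2 higher and 3 lower of 7.

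Leukocyte markers (8 of 9 in the table, Cd79a not among them) summed to 528 to 616 in young and 592 to 715 in old libraries, with 2 of 7 tested called higher, near the share of all genes. These were Ptprc and Adgre1. Ptprc was at 31.3 in young and 81.1 in old kidneys, and Adgre1 at 8.21 in young and 17.4 in old kidneys. The other 5 tested were not called, with Csf1r at 279 in young and 319.8 in old kidneys, Lyz2 at 86.5 in young and 84 in old kidneys, Cd52 at 76.3 in young and 69.6 in old kidneys, Laptm5 at 71.8 in young and 63.6 in old kidneys and Cd68 at 10.8 in young and 15.7 in old kidneys. Neutrophil markers (3 of 5 in the table, Ly6g and Mpo not among them) summed to 54.9 to 79.7 in young and 22.3 to 40.1 in old libraries, with Cxcr2 lower (46.8 in young and 8.62 in old kidneys). The other 2 were not called: S100a8 was at 11.5 in young and 8.48 in old kidneys and S100a9 at 9.95 in young and 11.5 in old kidneys. The part of these markers in the changes of the adhesion genes was not tested.

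Genes that rose had longer transcripts than genes that fell. The longest annotated transcript had a median of 7433 bases (3761 to 27908) for the 17 genes called higher and of 4134 bases (2215 to 8403) for the 13 called lower. Over all genes called, the medians were 4175 and 2724.5 bases. Spearman's correlation of transcript length with log2 fold change was 0.66 over the 36 genes, 0.60 over 34 without the very long Syne1 and Syne2, and 0.275 over 12433 genes with a length. These are correlations across genes measured in the same 9 libraries, and genes are not independent replicates.

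With the trend of each library over transcript length removed, 27 of the 36 genes were called, 13 higher and 14 lower, beside 57.6% of all genes (28.7% higher, 28.9% lower). Itga9, Itgav, Tln2 and Syne1 lost their calls, at the values given above. Over all alternatives the adjusted p of Itgav ranged from 0.000479 to 0.787, that of Tln2 from 2.49e-09 to 0.096 and that of Syne1 from 3.76e-15 to 0.187. Cd44 was then called lower, at -0.77 (adjusted p = 0.0431), within a range of 0.0431 to 0.385. Removing the trend made the log2 fold change over 1.5 times smaller in 12 of the 30 called genes (11 higher and 1 lower in old kidneys). These were Itga1, Itga9, Itgav, Tln1, Tln2, Flna, Rock1, Rock2, Myh9, Syne1 and Syne2 among the higher genes and, among the lower, Vasp at -0.39 (adjusted p = 0.0169). It made the value over 1.5 times larger in 2, Itgb8 (-0.98) and Parva (-0.73). Syne2 kept its call and Sun1 was at -1.58 (adjusted p = 4.66e-07), so this nesprin and its SUN partner still moved in opposite directions. The lengths are of the longest annotated transcript, which has 5 exons for Parva and 3 for Lmna. Whether the kidney uses that transcript was not tested. Syne1 (27908 bases) and Syne2 (21704) lie far above the median of 3331 bases over all genes with a length. The part of transcript length in these changes was not tested further.

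**Figure D4:**
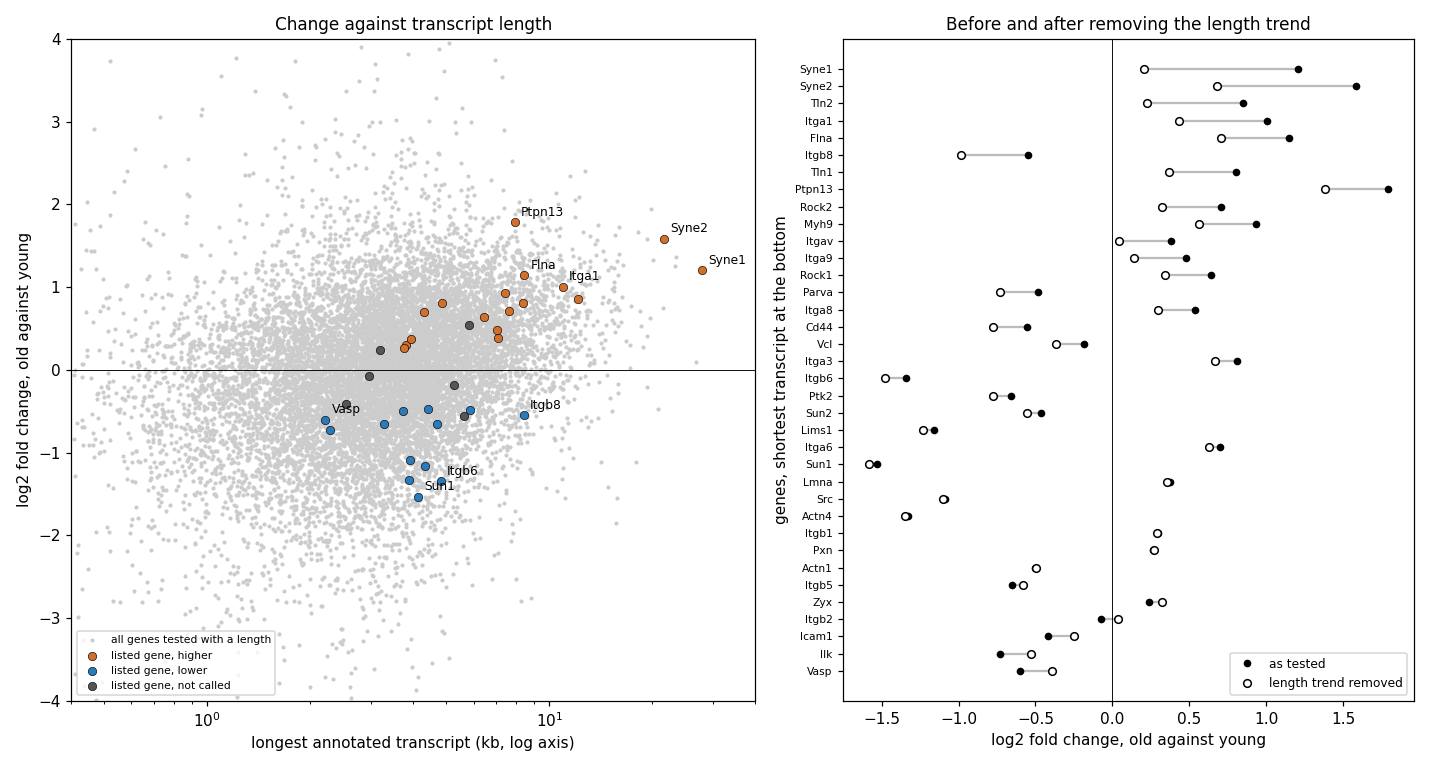
Left, log2 fold change (old over young, y axis) against longest annotated transcript (kilobases, log x axis) for the 36 adhesion and nuclear linkage genes, colored by call, over all genes tested with a length (gray, within the axes shown), with the genes called higher at a median of 7433 bases and those called lower at 4134. Right, the log2 fold change (x axis) of the same genes, ordered by length, as tested (filled) and with the length trend removed (open), where the long genes at the top shift left.

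The larger mitochondrial share of old libraries bears on the scale. With mitochondrial genes left out and the other genes scaled to equal totals, the median log2 fold change of all genes moved to 0.135. On that scale 31 of the 36 genes were called, 19 higher and 12 lower, beside 60.5% of all genes (35.4% higher, 25.1% lower). Sun2 lost its call (-0.33 (adjusted p = 0.0577), within a range of 0.00206 to 0.0577), while Itga8 (0.68 (adjusted p = 0.023)) and Zyx (0.38 (adjusted p = 0.0419), within 0.0419 to 0.477) were called higher. None of the other 29 genes called in the limma fit changed direction or lost its call on that scale.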

How the data were processed

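Total RNA of whole kidneys (500 ng per library, mean integrity number 7.5, per the labels) was made into stranded 3′ libraries. The labels and the study's methods name different versions of the kit. Per the labels, FastQC 0.11.7, TopHat2 2.0.10 with Bowtie 1.0.0 and SAMtools 0.1.19, HTSeq 0.6.1 and DESeq2 were used, on GRCm39. The study's methods give stranded counting on GENCODE vM26. The deposited unit is a signal: for every gene the authors divided its read count by the size factor of the library. Whole read counts were recovered from them (100% of values whole within 1e-06). The lowest gene mean was 4.49 normalized counts, so the table holds no gene with fewer and its totals cover its genes only. A floor of 3 reads was 4.72e-05% to 6.69e-05% of a library, counting error only, since the sources used here name no molecular identifiers for these kidney libraries, and reads are then not independent molecules.

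Groups came from the age in the labels, and replicates were numbered in listing order, so p-values measure the spread between these libraries. Genes with at least 10 normalized counts in at least 4 libraries were tested with limma 3.58.1 (R 4.3.3, trended eBayes) on log2(normalized count + 1), two-sided, with Benjamini-Hochberg adjustment over all genes tested. Every adjusted p-value in the text is from this test unless another is named. Alternatives were other pseudocounts (0.1 and 5), filters and scalings, robust eBayes, count models on the whole reads (edgeR 4.0.16, DESeq2 1.42.0), thinned reads, removal of a length trend, and leaving out each library. The fits were also run on simulated counts in which 200 genes changed, far fewer than were called here. That run does not measure their error on these data.

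The members and lists were chosen with earlier results of these data known. Values in every library are given for the 3 called genes of each role with the largest absolute log2 fold change and a mean of at least 20 normalized counts. From each other list, up to 2 such genes are named in each direction, those that moved most, and Actg1 is named in addition. Markers named beside them were chosen after their values were seen. Gene positions and lengths are from GENCODE vM21 on GRCm38, an earlier build than the authors', matched by symbol for 12833 of 13081 genes (98.1%). Shared sequence was counted as 50-base words of transcripts found in another gene, and was at most 3.13% for listed genes in the table other than those for which it is given.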

Additional observations from a re-analysis of the deposited data

Results flagged for a closer look

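In 4 of 72 age groups examined (36 genes in 2 ages), 1 library lay far from the others by Dixon's criterion, where chance alone gives about 1 in 20, or 3.6. Old replicate 3 was at 207 normalized counts of Itga3, above the other old libraries at 124 to 142, and at 58.8 of Sun1, above 35.0 to 40.3. Young replicate 4 was at 397 normalized counts of Tln2, above the other young libraries at 321 to 324, and at 3039 of Actn4, above 2802 to 2838. For all 4 genes the age groups did not overlap and the call held without that library in limma.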

How the results depend on the processing

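Over 21 alternatives, 714 of 746 log2 fold changes of single genes kept their direction and their side of the threshold, 22 lost and 6 gained the call, and 4 changed sign, in 13 genes in all. The 4 sign changes were of Itgb2, which was not called in any: 0.057 with mitochondrial genes left out, 0.039 with the length trend removed, and -0.22 to 0.11 when 1 library was left out. Leaving out 1 library gave 27 to 30 listed genes called, 14 to 16 higher and 13 to 14 lower, 20 to 22 called with at least 1.5-fold change (14 with the length trend removed, beside 21 as tested), 63 to 72 other pathway genes called and 6756 to 7561 of all genes. A mean of at least 100 normalized counts left 4101 of all genes called, since fewer genes were tested. Scaling to the table total lost Itgb1 (0.25, limma adjusted p = 0.0979, within 0.00413 to 0.0979) and Pxn (0.21, 0.11, within 0.0039 to 0.206), and thinning to 4486406 reads lost Pxn (0.25, 0.0603). The cause was not tested. The labels give no pairing of young with old libraries, and no paired analysis was run. Itgb2 and Itgb3 had at most 16 reads in any library.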
